A study of Homo sapiens with 8 samples.

Results

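The genes described here encode histones, histone deacetylases, chromatin remodelling ATPases and their partners, chromobox proteins and DNA methyltransferases. They were chosen by symbol, as table rows whose gene name begins with HIST, H1F, H2AF, H2BF, H3F, H4F, HDAC, SMARC, CBX, CHD or DNMT, or with HMGA, HMGB or HMGN and a number. The rule found 94 of 14427 clone spots, which stood for 75 of 13340 cDNA clones and 64 of 9962 gene symbols. No measured value entered the choice. The HMG pattern found no row, because the array carries the older HMG names, and those clones are given separately below.

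Total RNA was compared between A2780, an established human ovarian carcinoma line, and 4 of its derivatives that are resistant to the platinum drug cisplatin. The derivatives are named CPR20, CPR40, CPR55 and CPR70, and the sensitive parental line is named CPR00. All lines were grown in RPMI1640 with fetal calf serum, and the labels state no cisplatin exposure at harvest, no time and no number of clones behind a derivative. On each of the 8 arrays the derivative was labelled with Cy5 and the parental line with Cy3, with no dye exchange, and each derivative had 2 arrays. A dye effect of a single clone therefore cannot be told apart from a difference between the lines. No label ties the arrays of a pair to separate cultures, so errors and p-values measure only the spread between arrays, which may be technical.

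DNA in the nucleus is wound around octamers of the core histones H2A, H2B, H3 and H4, and the linker histone H1 binds where the DNA enters and leaves. Most histone genes lie in clusters, are copied into mRNA mainly during S phase and give transcripts that end in a stem-loop instead of a poly(A) tail. Replacement variants such as H2A.Z and H3.3 come from separate genes with polyadenylated mRNA and are made outside S phase as well, while H2AX gives both a stem-loop and a polyadenylated transcript. Deacetylases remove acetyl groups from histone tails, SMARC and CHD proteins slide or evict nucleosomes with the energy of ATP, chromobox proteins bind methylated histone H3, and DNMT1, DNMT3A and DNMT3B methylate cytosine in DNA. The labels do not say which primer was used for reverse transcription, which bears on how well transcripts without a poly(A) tail were labelled. Genes within a histone class have near-identical coding sequences, so a histone clone can bind transcripts of related genes, and a clone is named here only by the symbol that the table gives it.

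Promoter sequences are shown for 3 H2B genes. H2BC21 and H2BC15 were taken because a clone of each was bright in both channels on all 8 arrays, by the measure given below, and matched 1 current gene. H2BC17 was taken because H2A and H2B genes often share 1 promoter, as it does with an H2A gene. The sequences are the 300 bases from 250 before to 50 after the gene start, from RefSeq genes of GRCh38.p14, in the direction of the gene. Capitals mark the octamer ATTTGCAT on either strand, the textbook element of H2B promoters. H2BC21 (H2BFQ on the array) lies on the minus strand at chr1:149886633-149886932. H2BC17 (H2BFN) lies on the plus strand at chr6:27893175-27893474, and H2BC15 (H2BFD) on the plus strand at chr6:27838319-27838618.
H2BC21: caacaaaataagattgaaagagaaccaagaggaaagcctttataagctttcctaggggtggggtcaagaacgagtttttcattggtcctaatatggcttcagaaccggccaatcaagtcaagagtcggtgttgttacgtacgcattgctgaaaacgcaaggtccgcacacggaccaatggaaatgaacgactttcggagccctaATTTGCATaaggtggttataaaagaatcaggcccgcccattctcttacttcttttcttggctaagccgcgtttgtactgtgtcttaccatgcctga
H2BC17: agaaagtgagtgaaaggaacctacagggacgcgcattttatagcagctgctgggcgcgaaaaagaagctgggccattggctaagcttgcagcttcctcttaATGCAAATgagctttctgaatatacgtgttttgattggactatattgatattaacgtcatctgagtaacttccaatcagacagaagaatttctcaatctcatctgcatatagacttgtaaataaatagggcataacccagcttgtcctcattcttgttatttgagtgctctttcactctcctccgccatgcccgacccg
H2BC15: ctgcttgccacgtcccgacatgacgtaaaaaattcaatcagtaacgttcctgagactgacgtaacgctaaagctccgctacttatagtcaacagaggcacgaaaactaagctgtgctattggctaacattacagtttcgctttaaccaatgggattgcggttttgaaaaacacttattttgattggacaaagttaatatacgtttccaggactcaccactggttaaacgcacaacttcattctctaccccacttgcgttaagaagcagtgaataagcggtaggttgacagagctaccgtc

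Of the 64 symbols, 62 matched a RefSeq gene, mostly under an older name, and 55 of these had a promoter sequence. The octamer, searched on both strands, was found in 5 of 6 H2A promoters and 3 of 6 H2B promoters, and in 1.77% of 35116 promoters of all genes. It was also found in 1 of 3 H3 promoters and in 1 of 5 promoters of replacement variants. None of 4 H4 promoters, none of 3 H1 promoters and none of 11 SMARC promoters held it. The letters CCAAT were found in all 6 H2A, all 6 H2B, all 3 H3 and all 3 H1 promoters, in none of the 4 H4 promoters, and in 34.6% of all promoters. The letters TATAAA were found in 5 of 6 H2A promoters and 5 of 6 H2B promoters, against 11.5% of all promoters. Other histone promoters held them too, 2 of 3 for H1, 2 of 3 for H3, 2 of 4 for H4 and 4 of 5 for replacement variants. These are letter matches in fixed windows and say nothing about which factor binds. H2AC17 (H2AFN) and H2BC17 start 240 bases apart on opposite strands, so the H2BC17 sequence above is also the promoter region of H2AC17. H2AC11 (H2AFP) and H2BC11 (H2BFR) are a second such pair on the array, 248 bases apart. Within each pair the 2 windows overlap, so the same octamer can be counted for both the H2A and the H2B gene.

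Clone signals were read against the empty spots of each array. A channel was counted as above the empty spots when its intensity exceeded their median by more than 2.6 scaled median absolute deviations. By this measure between 26.4% and 60.3% of found clone spots per array passed this level in the derivative's Cy5 channel. In the parental line's Cy3 channel the shares were 20.3% to 41.9%. Of the 75 member clones, 72 had values on at least 1 array of each derivative and entered the fit of 13186 clones. The clones not fitted were those of H2AFP, HDAC3 and HDAC4, and 62 member clones had values on all 8 arrays. Among the fitted member clones, 13 of 72 (18.1%) were above the empty spots in both channels on all 8 arrays, against 9.18% of all clones fitted. At the other end, 12 of the 75 clones were above them on no array in either channel. No H2A, H3 or H4 clone was above the empty spots in the derivative channel on all 8 arrays. The brightest H2A clone, H2AFI, was above them on 7 arrays in the derivative channel and on 6 in the parental channel. Of the 11 H2B clones, 3 were above them in both channels on all 8 arrays. The labelled tissue could not be shown from epithelial markers in the parental channel. There, 0 of 7 fitted markers were above the empty spots on more than 4 of the 8 arrays. The marker KRT18 was above them on 4 arrays in the parental channel and on 8 in the derivative channel. Its log2 ratio was 1.54 (limma, adjusted p = 0.0673) and lay above 0 on 8 arrays. EPCAM, an epithelial surface protein, had a log2 ratio of 0.82 with a parental channel above the empty spots on 0 arrays and a derivative channel on 2. The other fitted epithelial markers had 0.33 (PAX8), 0.05 (CDH1), 0.05 (WT1), -0.06 (KRT8) and -0.10 (KRT19), none of them called. The median of all 7 was 0.05. Of 7 clones of other cell types, ALB (albumin, of hepatocytes) had a log2 ratio of 0.93 with a parental channel above the empty spots on 0 arrays, and VWF (von Willebrand factor, of endothelium) was above them on all 8. The part of these signals in the results below was not tested.

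The first comparison asked which of these genes differed from the parental line in the mean of the 4 derivatives. The core histone gene H4FG and the deacetylase clones HDAC7B-PENDING and HDAC1 fell, and the remodelling ATPase SMARCA1 and the histone gene H2BFQ rose. The H4FG clone was 3.05-fold and the HDAC7B-PENDING clone 2.58-fold lower in this mean, while the differences of HDAC1, SMARCA1 and H2BFQ lay between 1.3-fold and 1.42-fold. Each value is a log2 ratio of derivative over parental intensity after loess normalisation within the array, fitted with limma, with the standard error of the fit and a Benjamini-Hochberg adjusted p over all clones. Called here means an adjusted p under 0.05. In total 6 of 72 member clones were called, 2 higher and 4 lower, which is 8.33%, against 11.0% of all 13186 clones (6.33% higher and 4.62% lower). With median centring in place of loess, 0 members were called higher and 3 lower, and with the deposited log2 values 0 higher and 1 lower. The share of member clones at an unadjusted p under 0.05 was 27.8%, against 26.4% of all clones. Their median log2 ratio was -0.02, against -0.01 over all clones.

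**Figure D1:**
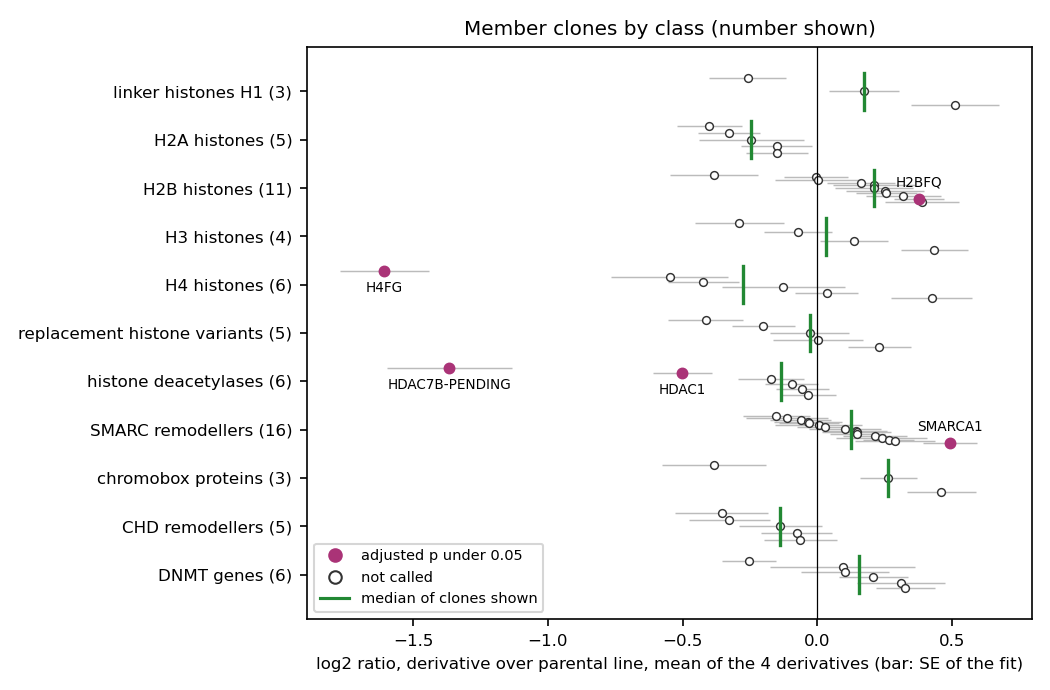
Log2 ratio of derivative over parental line in the mean of the 4 derivatives for the fitted member clones that are reported, by class, with the standard error of the fit as a bar and the median of the clones shown as a green line. Called clones are filled. H4FG and HDAC7B-PENDING lie at -1.61 and -1.37, apart from the other clones shown, which lie between -0.55 and 0.51.

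H4FG (now H4C3), a replication-dependent gene of the core histone H4, showed the largest difference among the members. Its log2 ratio was -1.56 and -1.92 in CPR20, -1.29 and -1.67 in CPR40, -1.80 and -2.51 in CPR55, and -0.42 and -1.69 in CPR70. It was below 0 on 8 of 8 arrays, and the first CPR70 array lay closest to 0. The mean was -1.61 ± 0.16 (SE, 8 arrays; limma, adjusted p = 0.00106), a 3.05-fold lower level in the derivatives. Its signal was above the empty spots on 7 arrays in the derivative channel and on 8 in the parental channel. None of the 5 other H4 clones was called. H4FI (H4C2) had a mean of -0.55 and H4FJ (H4C5) of -0.42, while H4FD (H4C12) had 0.42. Their parental channels were above the empty spots on 0, 1 and 0 arrays. The 2 clones of H4FH (H4C8) had 0.03 and -0.13, with parental channels above the empty spots on 5 and 0 arrays. Most of these clones were thus near background, where a fall like that of H4FG could hardly be seen. H4 genes encode the same protein, and their transcripts share most of their coding sequence.

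Among the replacement variants, the clones of 5 genes were not called. H1FX, a linker histone variant, had 0.23, H2AFX, the H2A variant phosphorylated at DNA breaks, had 0.00, and H2AFZ, the H2A.Z gene, had -0.03. The 2 genes of H3.3 had -0.20 (H3F3A) and -0.41 (H3F3B).

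Of the 6 deacetylase clones fitted, 2 fell, while 4.62% of all clones were called lower. All 6 had means below 0, or 5 of 6 with median centring and with the deposited log2 values. Over all clones, 49.2% of means lay above 0. By derivative, 3 of the 6 lay below 0 in CPR20, 5 in CPR40, 6 in CPR55 and 4 in CPR70. The clones of HDAC5 and HDAC7 were above the empty spots on 0 arrays in either channel, so their signs rest on values near background. The clone labelled HDAC7B-PENDING had log2 ratios of -1.54 and -0.90 in CPR20, -2.30 and -0.39 in CPR40, -1.45 and -0.49 in CPR55, and -2.36 and -1.49 in CPR70. In every derivative the replicate 1 array gave the lower value. The mean was -1.37 ± 0.23 (SE, 8 arrays; limma, adjusted p = 0.00911), 2.58-fold lower, with the derivative channel above the empty spots on 2 arrays and the parental channel on 5. Its replicate 1 arrays alone gave -1.91 (limma, adjusted p = 0.00694) and its replicate 2 arrays alone -0.82 (limma, adjusted p = 0.0336). In CPR40 and in CPR55 the derivative channel was not above the empty spots on either array. With that channel raised to the level of the empty spots, the clone was 1.39-fold lower in CPR40 and 1.26-fold lower in CPR55. The parental channel was above the empty spots on only 1 of the 2 arrays in each, so these values are not lower bounds. Neither difference was called. The symbol matched no RefSeq gene as written. Without its suffix it is listed there as an older name of HDAC9, and the clone is left under the name in the table.

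HDAC1, the catalytic subunit of the Sin3, NuRD and CoREST corepressor complexes, was measured above the empty spots in both channels on all 8 arrays. Its log2 ratio was -0.41 and -0.59 in CPR20, -0.47 and -0.82 in CPR40, -0.36 and -0.71 in CPR55, and -0.10 and -0.54 in CPR70. All values were below 0, and the mean was -0.50 ± 0.11 (SE, 8 arrays; limma, adjusted p = 0.0247), 1.42-fold lower. Its replicate 1 arrays alone gave -0.33 (adjusted p = 0.150) and its replicate 2 arrays alone -0.67 (adjusted p = 0.00795), both with limma. HDAC2, the close relative that occupies the same complexes, had a mean of -0.06 and was not called. HDAC5, HDAC6 and HDAC7 had -0.10, -0.17 and -0.04 and were not called either. The median of the deacetylase class was below 0 on 8 of 8 arrays, between -0.37 and -0.06.

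SMARCA1, an ISWI-type ATPase that spaces nucleosomes, was the only one of the 16 SMARC clones that was called. Its log2 ratio was 0.48 and 0.49 in CPR20, 0.60 and 0.55 in CPR40, 0.58 and 0.79 in CPR55, and 0.00 and 0.44 in CPR70. The first CPR70 array showed no difference, and the other 7 were above 0. The mean was 0.49 ± 0.10 (SE, 8 arrays; limma, adjusted p = 0.0192), 1.41-fold higher, with the derivative channel above the empty spots on 8 arrays and the parental channel on 5. Within the replicate 1 arrays the value was 0.42 (limma, adjusted p = 0.135), and within the replicate 2 arrays 0.57 (limma, adjusted p = 0.0146). SMARCA5, the other ISWI ATPase, had -0.04, and the SWI/SNF ATPases SMARCA2 and SMARCA4 had 0.24 and 0.15. The SWI/SNF subunits had 0.01 and -0.15 for the 2 clones of SMARCB1, 0.15 and -0.03 for SMARCC1, 0.29 and 0.10 for SMARCC2, -0.11 for SMARCD1, 0.22 for SMARCD2, 0.15 for SMARCD3 and 0.03 for SMARCE1. SMARCF1, now ARID1A, had -0.06, and SMARCA3, now the DNA repair translocase HLTF, had 0.27. None of these passed the test. Of the 16 SMARC clones, 11 (68.8%) lay above 0, against 49.2% of all clones.

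H2BFQ (now H2BC21) was represented by a clone printed 8 times, and this clone rose by a small amount with little spread. Its log2 ratio, as a mean over its spots, was 0.35 and 0.43 in CPR20, 0.38 and 0.29 in CPR40, 0.34 and 0.45 in CPR55, and 0.37 and 0.40 in CPR70. All 8 arrays were above 0, and so were 61 of the 64 spots. The mean was 0.38 ± 0.09 (SE, 8 arrays; limma, adjusted p = 0.0370), 1.3-fold higher. The spread of the array means was 0.05 (SD, 8 arrays), while the SD among the 8 spots within an array ran between 0.03 and 0.41. The 2 arrays with the widest spots were the replicate 1 arrays of CPR20 and CPR55. A second H2BFQ clone, printed once and faint, had -0.01 (limma, adjusted p = 0.983). Each removal of 1 array of the 8 took the called clone past the threshold, with its value between 0.36 and 0.39. Its replicate 1 arrays alone gave 0.36 (limma, adjusted p = 0.100) and its replicate 2 arrays alone 0.39 (limma, adjusted p = 0.0295).

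**Figure D2:**
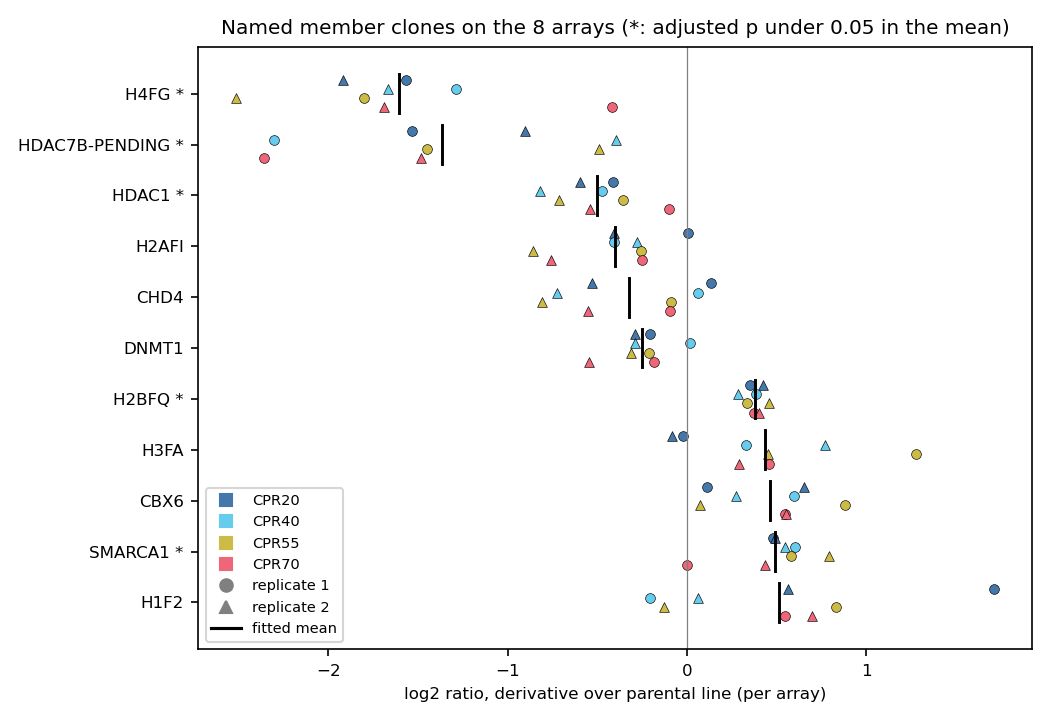
Log2 ratio of derivative over parental line on each of the 8 arrays for the 11 named member clones, coloured by derivative, with circles for replicate 1 and triangles for replicate 2 and a black line at the fitted mean. H4FG, HDAC7B-PENDING and HDAC1 lie below 0 on all 8 arrays, and CHD4 lies near 0 in replicate 1 and between -0.81 and -0.53 in replicate 2.

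**Figure D3:**
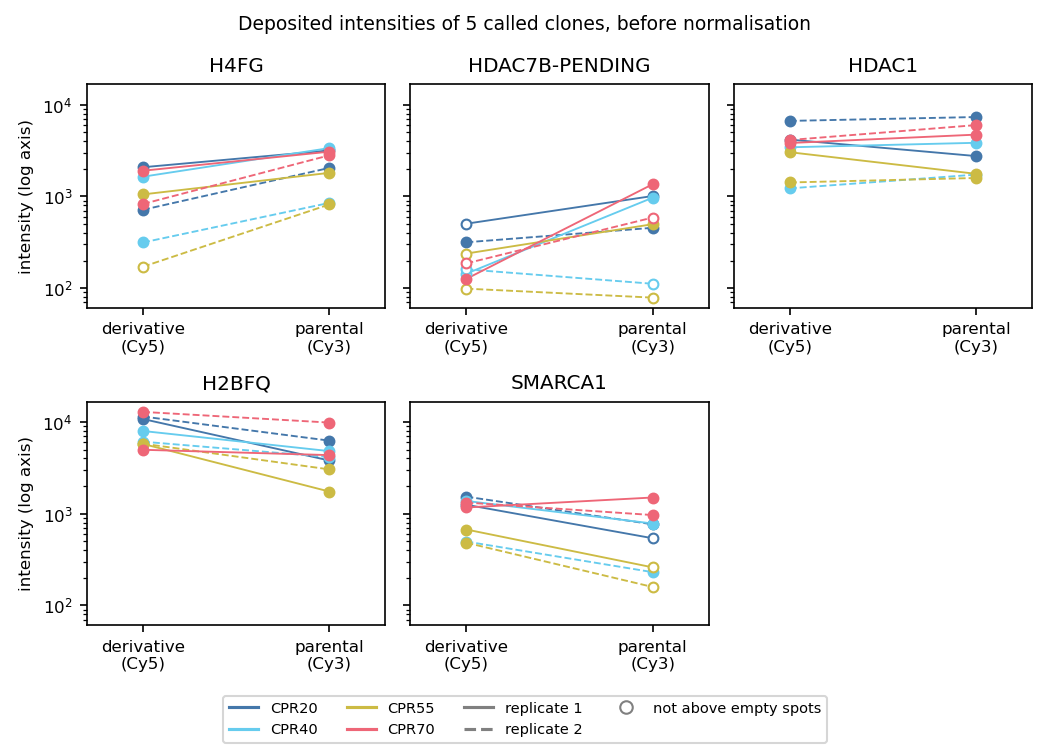
Deposited intensities of the 5 named clones that were called, before normalisation, with the derivative (Cy5) left of the parental line (Cy3) on a log axis, and 1 line per array. Open points are not above the empty spots. The H4FG lines climb toward the parental line on all 8 arrays, while HDAC7B-PENDING is open in the derivative channel on 6 of 8.

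The replication-dependent histones as a whole did not move one way. Of their 29 fitted clones, 1 was higher, 1 was lower and 27 were not called, and the median log2 ratio was 0.00. By class, all 5 fitted H2A clones had means below 0, between -0.40 and -0.15 (4 of 5 below 0 with median centring), and none was called. Averaged over the replicate 1 arrays alone, 2 of the 5 lay above 0, and over the replicate 2 arrays alone 0 did. Over all clones, 49.2% of means lay above 0. The brightest, H2AFI (H2AC16), had 0.00 and -0.41 in CPR20, -0.41 and -0.28 in CPR40, -0.26 and -0.86 in CPR55, and -0.25 and -0.76 in CPR70. H2AFI was below 0 on 7 of 8 arrays, with a mean of -0.40 ± 0.12 (SE, 8 arrays; limma, adjusted p = 0.0741). H2AFA (H2AC8) had a mean of -0.33, H2AFL (H2AC6) of -0.25 and H2AFO (H2AC18) of -0.15. Their parental channels were above the empty spots on 0, 0 and 3 arrays, so these values rest mostly on signals near background. Of 11 H2B clones, 9 had means above 0 (8 with median centring and with the deposited log2 values), and the class median was 0.21. H2BFB (H2BC5) had 0.39 and 0.00 on its 2 clones, H2BFN (H2BC17) had 0.32, H2BFD (H2BC15) 0.26, H2BFC (H2BC13) 0.25, H2BFR (H2BC11) 0.21 and H2BFS (H2BC12L) -0.38. H2BFL, whose symbol matches 2 current genes, had 0.16 and 0.21 on its 2 clones.

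The divergent pair that shares the H2BC17 promoter region had means of opposite sign, 0.32 for H2BFN and -0.15 for H2AFN. Neither was called, and on several single arrays both clones had the same sign. H2BFN had 0.65 and 0.02 in CPR20, 0.29 and -0.05 in CPR40, 0.89 and 0.22 in CPR55, and 0.59 and -0.06 in CPR70. H2AFN had 0.02 and -0.10 in CPR20, -0.25 and -0.47 in CPR40, -0.01 and -0.32 in CPR55, and 0.32 and -0.37 in CPR70, with a mean of -0.15. H2BFN was the higher of the pair on each of the 8 arrays, and in both genes the replicate 1 array exceeded the replicate 2 array of every derivative. H2AFN was above the empty spots in both channels on the second CPR20 array alone, so its ratios rest mostly on values near background. The difference between the 2 genes was not tested.

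Among the other histone clones, H1F2 (H1-2), a replication-dependent linker histone, had the highest mean of all members. Its log2 ratio was 1.71 and 0.56 in CPR20, -0.20 and 0.06 in CPR40, 0.83 and -0.13 in CPR55, and 0.55 and 0.70 in CPR70. The values ranged over both signs, with the first CPR20 array far above the rest, and the mean of 0.51 ± 0.16 (SE, 8 arrays) did not pass (limma, adjusted p = 0.0889). H1F1 (H1-1) had 0.17 and H1F3 (H1-3) -0.26. Among H3 clones, H3FA (H3C1) had -0.02 and -0.08 in CPR20, 0.33 and 0.77 in CPR40, 1.28 and 0.45 in CPR55, and 0.46 and 0.29 in CPR70. Its mean was 0.43 ± 0.12 (SE, 8 arrays; limma, adjusted p = 0.0633), with a parental channel above the empty spots on 0 arrays. H3FB (H3C4), H3FD (H3C6) and H3FF (H3C11) had -0.07, 0.14 and -0.29.

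The class medians differed between the replicate 1 arrays and the replicate 2 arrays, which also carry separate ranges of array numbers. The H2B class median lay between 0.29 and 0.67 on the 4 replicate 1 arrays and between -0.25 and 0.22 on the 4 replicate 2 arrays. Averaged within a set, 9 of 11 H2B clones were above 0 in replicate 1 and 5 of 11 in replicate 2. The SMARC clones went the same way, with 14 of 16 above 0 in replicate 1 and 8 of 16 in replicate 2. So did the 6 DNMT clones, with 5 and 2 above 0, and the 5 H2A clones, with 2 and 0 and class medians of -0.01 and -0.32. Of the 5 CHD clones, 1 and 2 were above 0, and the H1, H3 and chromobox counts were the same in both sets. Over all 72 members, 62.5% were above 0 in replicate 1 and 37.5% in replicate 2, while over all clones the shares were 51.4% and 47.2%. The H2B class median was 0.45 over the replicate 1 arrays and -0.06 over the replicate 2 arrays. The deacetylase medians were below 0 in both, between -0.27 and -0.06 in replicate 1 and between -0.37 and -0.21 in replicate 2. The difference between the array sets was not tested.

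**Figure D4:**
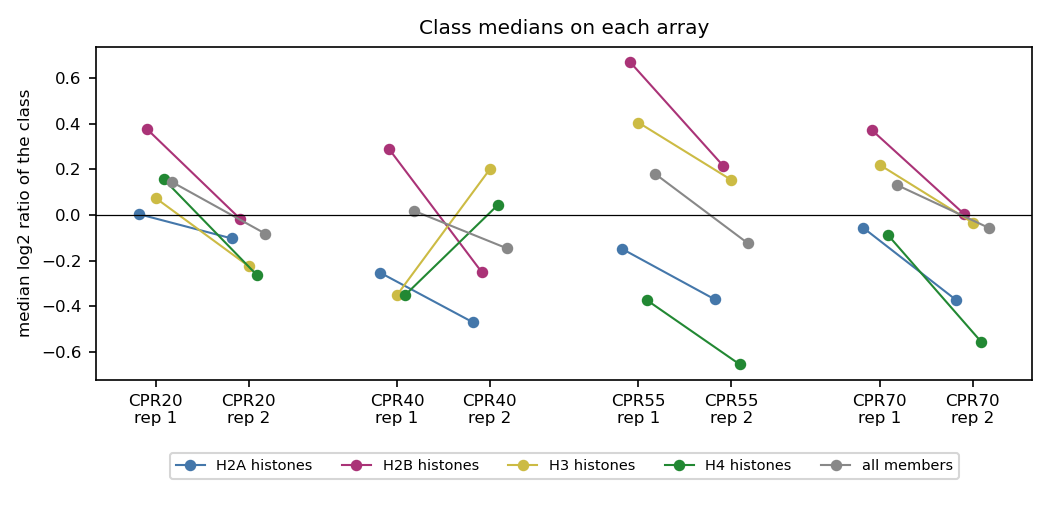
Median log2 ratio of the H2A, H2B, H3 and H4 clones and of all members on each array, with a line joining the 2 arrays of a derivative. The H2B medians are 0.37, 0.29, 0.67 and 0.37 on the replicate 1 arrays of CPR20, CPR40, CPR55 and CPR70 and lie between -0.25 and 0.22 on the replicate 2 arrays.

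The chromobox, CHD and DNMT classes held no called clone in the fit without a replicate block. CBX6, a Polycomb chromobox protein, had 0.11 and 0.65 in CPR20, 0.60 and 0.27 in CPR40, 0.88 and 0.07 in CPR55, and 0.55 and 0.55 in CPR70. It was above 0 on 8 of 8 arrays, and its mean of 0.46 ± 0.13 (SE, 8 arrays) missed the threshold (limma, adjusted p = 0.0594). The heterochromatin proteins CBX1 (HP1 beta) and CBX5 (HP1 alpha) had 0.26 and -0.38, in opposite directions, and neither was called. CHD4, the ATPase of the NuRD complex, had 0.13 and -0.53 in CPR20, 0.06 and -0.73 in CPR40, -0.09 and -0.81 in CPR55, and -0.10 and -0.55 in CPR70. All 4 replicate 2 arrays were lower than all 4 replicate 1 arrays. The mean was -0.33 ± 0.15 (SE, 8 arrays; limma, adjusted p = 0.211), while the replicate 2 arrays alone gave -0.65 (limma, adjusted p = 0.00863) and the replicate 1 arrays alone 0.00 (limma, adjusted p = 0.993). CHD1, CHD2 and the 2 clones of CHD3 had -0.06, -0.36, -0.08 and -0.14.

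DNMT1, the maintenance DNA methyltransferase, was represented by a clone printed 8 times, whose means were -0.21 and -0.29 in CPR20, 0.02 and -0.29 in CPR40, -0.21 and -0.31 in CPR55, and -0.19 and -0.55 in CPR70. Of its 61 spots found, 3 were above 0, and the mean was -0.25 ± 0.10 (SE, 8 arrays; limma, adjusted p = 0.158). The value on the second CPR70 array held 1 spot at -1.78, and the SD among its spots there was 0.51. A second DNMT1 clone had 0.09 ± 0.27 (SE). The 2 clones of DNMT3A, a de novo methyltransferase, had 0.31 and 0.21, and DNMT3B had 0.10. DNMT2 had 0.33 ± 0.11 (SE; limma, adjusted p = 0.102), and this gene is now TRDMT1, which methylates transfer RNA.

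**Figure D5:**
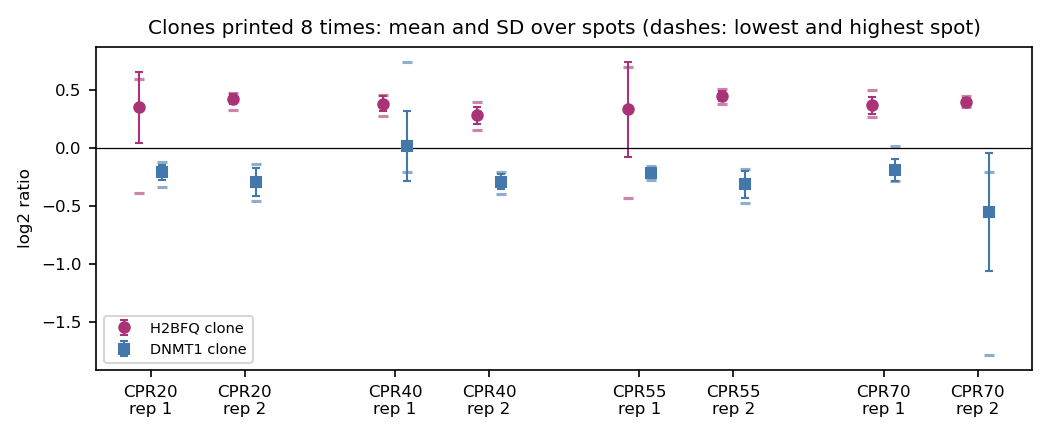
Log2 ratio of the H2BFQ and DNMT1 clones that were printed 8 times, per array, as mean and SD over spots, with dashes at the lowest and highest spot. The H2BFQ means lie between 0.29 and 0.45 and the DNMT1 means between -0.55 and 0.02, with single spots far from the rest on a few arrays.

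Where a gene had several clones, their values were set side by side. This was so for 11 symbols, each with 2 clones. In 6 of the 11 both clones had the same sign, and the difference between clones was between 0.05 and 1.08, with a median of 0.18. Many pairs set a brighter clone beside a value near background. In H2BFB, H4FH, SMARCB1, SMARCC1, SMARCC2 and DNMT3A, for instance, 1 clone had a parental channel above the empty spots on 0 arrays. Agreement or difference within such a pair is therefore hard to read.

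The next comparisons asked which members differed in each derivative alone. In CPR20, 0 of 72 clones were called (7 at an unadjusted p under 0.05), against 0.516% of all clones. In CPR40, 1 was called, against 0.607% of all clones, and in CPR55, 1 was called, against 0.629%. In CPR70, 0 were called (5 at an unadjusted p under 0.05), against 1.43%. The clone called in CPR55 was H4FG, with -2.16 ± 0.33 (SE, 2 arrays; limma, adjusted p = 0.0354), 4.46-fold lower. This SE was the same for H4FG in every derivative, because the fit pools the spread over all arrays. On the second CPR55 array the derivative channel of H4FG, at 171.4, was not above the empty spots (level 172.4). That array gave -2.51, against -1.80 on the first, so the 4.46-fold value rests partly on a signal near background. H4FG had -1.74, -1.48 and -1.06 in CPR20, CPR40 and CPR70, none of them called. The H4FG call in CPR55 ended on removal of the first CPR55 array or of any 1 of the CPR20 and CPR40 arrays.

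The last comparison asked whether the derivatives differed from each other. Between CPR70 and CPR20, 0 of 72 members were called by limma and 0 had an unadjusted p under 0.05, and 0% of all clones were called (260 at an unadjusted p under 0.05). For any difference among the 4 derivatives, 0 members were called by limma and 0 had an unadjusted p under 0.05, again with 0% of all clones called (345 at an unadjusted p under 0.05). CPR70 minus CPR20 was 0.69 ± 0.47 (SE) for H4FG, -0.70 ± 0.65 (SE) for HDAC7B-PENDING, -0.27 ± 0.28 (SE) for SMARCA1 and 0.18 ± 0.31 (SE) for HDAC1. With errors of this size, small differences between derivatives were not detectable, and a call in 1 derivative is not shown to differ from the others.

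Genes around the members were read from the same fit, with each gene given by its brightest clone. Among 68 fitted of 90 other chromatin genes, 5 rose, 6 fell and 57 were not called, with a median of -0.08, beside the 6.33% higher and 4.62% lower of all clones. The 4 with the smallest p were RBBP7, a histone-binding subunit of HDAC1 complexes, at 1.08, the coactivator NCOA3 at 0.93, the remodeller subunit BPTF, a partner of the ISWI ATPases, at -0.74, and MBD2, which binds methylated DNA, at 0.65. The parental channel of RBBP7 and of NCOA3 was above the empty spots on 2 arrays each, and the derivative channel of BPTF on 2. EZH2, the Polycomb methyltransferase of H3, had -1.13 (limma, adjusted p = 0.0147) and was singled out after its value was seen. ARID1A had -0.56 on a clone other than the SMARCF1 clone and was called (limma, adjusted p = 0.0260). The 2 clones of this gene were not tested against each other. Among 13 fitted of 19 genes that make, store or deposit histones, NAP1L1, a histone chaperone, fell (-0.46) and 12 were not called. Of 27 fitted of 30 S phase and proliferation genes, CDC20, an activator of mitotic exit, rose (0.45), 26 were not called and the median was 0.00. High mobility group proteins bind nucleosomes or bend DNA. Of their 10 clones, 1 was higher and 1 was lower. HMGA1, printed as HMGIY, had -0.72 and -0.85 in CPR20, -0.73 and -0.76 in CPR40, -1.38 and -1.20 in CPR55, and -0.69 and -0.93 in CPR70. It was below 0 on every array, with a mean of -0.91 ± 0.10 (SE, 8 arrays; limma, adjusted p = 0.00120). HMGN4 had a mean of 0.70 ± 0.11 (SE, 8 arrays; limma, adjusted p = 0.00707) and was above 0 on 8 of 8 arrays, lowest at 0.08 on the second CPR55 array.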

How the data were processed

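The deposited table gives a Cy5 and a Cy3 intensity, a spot area and a calibrated ratio per spot and array, and a second deposited table gives log2 values. The authors made the calibrated ratio by multiplying Cy5 over Cy3 by 1 factor for an array, as recomputed from the values, and the log2 values equal log2 of that ratio to within 5e-05. The log2 values are uncentred, with array medians between -0.50 and 0.41. Their direction is derivative over parental line, per the labels' dyes. Spot-finding software, background treatment and scanner are not given in the sources used here. The table has 15360 spots, of which 933 were controls (233 empty), and 8 columns of 2 arrays that no sample describes were not used.

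Unfound spots (area 0) were set to missing, intensities were raised by an offset of 50, and each array's log2 ratios were loess-normalised. Repeat spots of 1 clone were averaged, and 154 clones without a value in some derivative were left out. limma 3.58.1 in R 4.3.3 fitted the 4 derivative means to all 8 arrays, with 4 residual degrees of freedom and a prior of 3.92. Where a clone lacked an array, the fit used the others. The parental RNA is the second channel of each array, so its spread is part of every ratio and was not estimated apart from that of the derivative. The number of arrays limits the precision. On simulated data for the mean of the 4 derivatives, with 13186 clones, 92% of log2 changes of 1 and 24% of changes of 0.5 were recovered. The simulation changed 100 clones at each size, and 12 unchanged clones were called. Its errors were independent between arrays, unlike the deposited data, where same-numbered arrays deviated together, so recovery there can differ.

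Named clones are those called in a comparison, plus the brightest clone of each class without a call, with values on all 8 arrays. Up to 4 called genes of each other list are named. Other members are given by their means. The counts include 1 fitted gene that is not reported here. No measured value entered the symbol rule for the members, but the rule and the lists were set with earlier results of these data known. Alternatives changed the offset, background correction, normalisation, dim or incomplete clones, source of values, array set and block, and left out each array in turn.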

Additional observations from a re-analysis of the deposited data

How the results depend on the processing

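Under 19 alternatives the count of member clones called in the mean of the 4 derivatives, 6 at first, was 3 with median centring, 1 with the deposited log2 values, 12 with the replicate 2 arrays alone and between 3 and 5 when 1 array was left out. It was 3 without either CPR20 array or without the second CPR70 array, and H4FG and HDAC7B-PENDING were among the 3 each time. These 2 clones were called in all alternatives that tested them but the deposited log2 values (adjusted p = 0.0559 for H4FG and 0.119 for HDAC7B-PENDING, both with limma). H4FG was tested in all 19. HDAC7B-PENDING was tested in 18, because it was itself dropped when dim clones were left out. The SMARCA1 clone lost its call in 7 of 19, HDAC1 in 8 of 19 and H2BFQ in 13 of 19. CHD4 turned to 0.0021 with the replicate 1 arrays alone. In CPR20 the count was 1 with an offset of 200 and 1 with dim clones left out. In CPR40 it was 0 with median centring, with scaling between arrays and with the deposited log2 values, and between 0 and 1 when 1 array was left out. In CPR55 it was 0 with no offset, with normexp, with median centring, with scaling and with the deposited log2 values, 2 with dim clones left out and 2 with complete clones alone, and between 0 and 1 when 1 array was left out. In CPR70 it was 1 with an offset of 200, 1 with complete clones alone, and between 0 and 1 when 1 array was left out. The comparisons between derivatives gave 0 member clones in each of the 17 alternatives. The causes of these shifts were not tested.

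With the replicate number as a block, 15 member clones were called in the mean, against 2550 of all clones, and the counts were 1 in CPR20, 2 in CPR40, 2 in CPR55 and 2 in CPR70. The 15 held all 6 clones called without the block and, in addition, CBX6, CHD2, CHD4, H2AFA, H2AFI, H2BFB, H2BFN, H3FA and H4FJ. The labels do not say that a number marks a shared batch or day, so the samples share only a number, although same-numbered arrays deviated together (correlations between 0.26 and 0.37 over 10807 clones, a hint from the data). Many members had a parental channel no brighter than the empty spots, which limits their ratios.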
